A study of Homo sapiens with 15 samples.

Results

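Collagen genes encode the chains of a family of matrix proteins whose defining part is a triple helix of repeated Gly-X-Y triplets. They were taken as all genes whose annotated symbol is COL, a number, A and a number, with 1 probe set per gene, which gave 41 genes of the 17687 measured. The 44 genes written down for the family were sorted by the structure their chains build, and COL3A1, COL7A1 and COL17A1 among them were not analysed here. The 41 genes comprised 10 fibrillar, 6 basement membrane, 10 FACIT, 5 beaded filament, 2 multiplexin, 3 network-forming, 3 transmembrane and 2 other collagens. The rule used symbols only and no measured value.

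Fibrillar collagens (I, II, V, XI and others) pack into the banded fibrils that carry tension, and FACIT collagens (fibril-associated collagens with interrupted triple helices) sit on the surface of those fibrils. Collagen IV forms the sheet of the basement membrane, which wraps each fat cell, collagen VI forms beaded filaments just outside it and is abundant in fat tissue, and the multiplexins XV and XVIII lie in the basement membrane zone. Each chain is hydroxylated and folded in the endoplasmic reticulum, trimmed after secretion and crosslinked by lysyl oxidases.

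The cells were of the human line ASC52, mesenchymal stem cells of adipose origin made immortal with TERT and named ASC52htert in the labels. All 3 groups come from this 1 line, so they hold no spread between donors, and each group had 5 single-colour arrays. MSC are cells that were not differentiated. MA, labelled mature adipocytes, are cells put into adipogenic medium 3 days after seeding, kept there for 14 days and then for 7 days in RPMI with 10% fetal bovine serum. DED, labelled dedifferentiated adipocytes, had the same differentiation and then 7 days in conditioned medium from breast carcinoma cells of the line MDA-MB-231. For this medium 10% serum is listed as well. When the MSC cells were harvested is not given here, so culture time and medium cannot be told apart from differentiation in the comparisons with MSC. The labels do not say whether the 5 arrays of a group are separate cultures, and p-values then reflect the spread between these samples alone, which may be technical.

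Values are log2 intensities as deposited by the authors, background corrected, normalized between arrays and summarised per probe set, so a shift shared by all genes cannot be read from them. In bulk RNA, fewer cells of a type and less RNA per cell cannot be told apart. Adipocyte markers checked the labels. The mean of 8 of them (ADIPOQ, PLIN1, FABP4, LPL, CIDEC, LIPE, PPARG and CFD) ran from 5.70 to 5.90 over the MSC arrays, from 12.70 to 12.88 in MA and from 9.88 to 11.53 in DED, where array 1 was highest and the other 4 lay between 9.88 and 10.53. All 8 rose from MSC to MA and fell from MA to DED. All 5 mesenchymal markers (NT5E, THY1, ENG, PDGFRA and PDGFRB) were above the 95th percentile of the negative control probe sets, 8.31, in each group. From MSC to MA, ENG fell by 1.18, THY1 fell by 1.55 and PDGFRA rose by 1.13. From MA to DED, ENG rose by 0.74, THY1 rose by 0.76 and NT5E fell by 0.70. From MSC to DED 4 of the 5 passed the test, 1 higher and 3 lower. Endothelial, epithelial and skeletal muscle markers were not above it in any. Of the leukocyte markers CD68 alone passed the test, with means of 8.33, 9.15 and 7.97 in MSC, MA and DED, and the osteoblast marker RUNX2 had means of 12.31, 9.81 and 12.54. The other osteoblast marker measured passed in no comparison and moved the other way, by 0.21 from MSC to MA and by -0.28 from MA to DED. The part of these mesenchymal, leukocyte and osteoblast markers in the collagen results was not tested. The lowest correlation between DED arrays was 0.982 over all genes, between arrays 1 and 3, and 0.995 over the 41 collagen genes.

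Signal of 14 of the 41 genes exceeded 8.31 in the mean of at least 1 group, and 11 exceeded it in all 3 groups. The other 27 had group means between 3.03 and 8.17, where a difference depends on background and is given only on the log2 scale. The 14 were COL1A1, COL1A2, COL2A1, COL5A1, COL5A2 and COL11A1 among the fibrillar collagens, COL12A1, COL14A1 and COL16A1 among the FACITs, COL6A1, COL6A2 and COL6A3, COL15A1 and COL8A1. A level of 1 gene is not set against that of another gene, since probes differ in response.

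**Figure D1:**
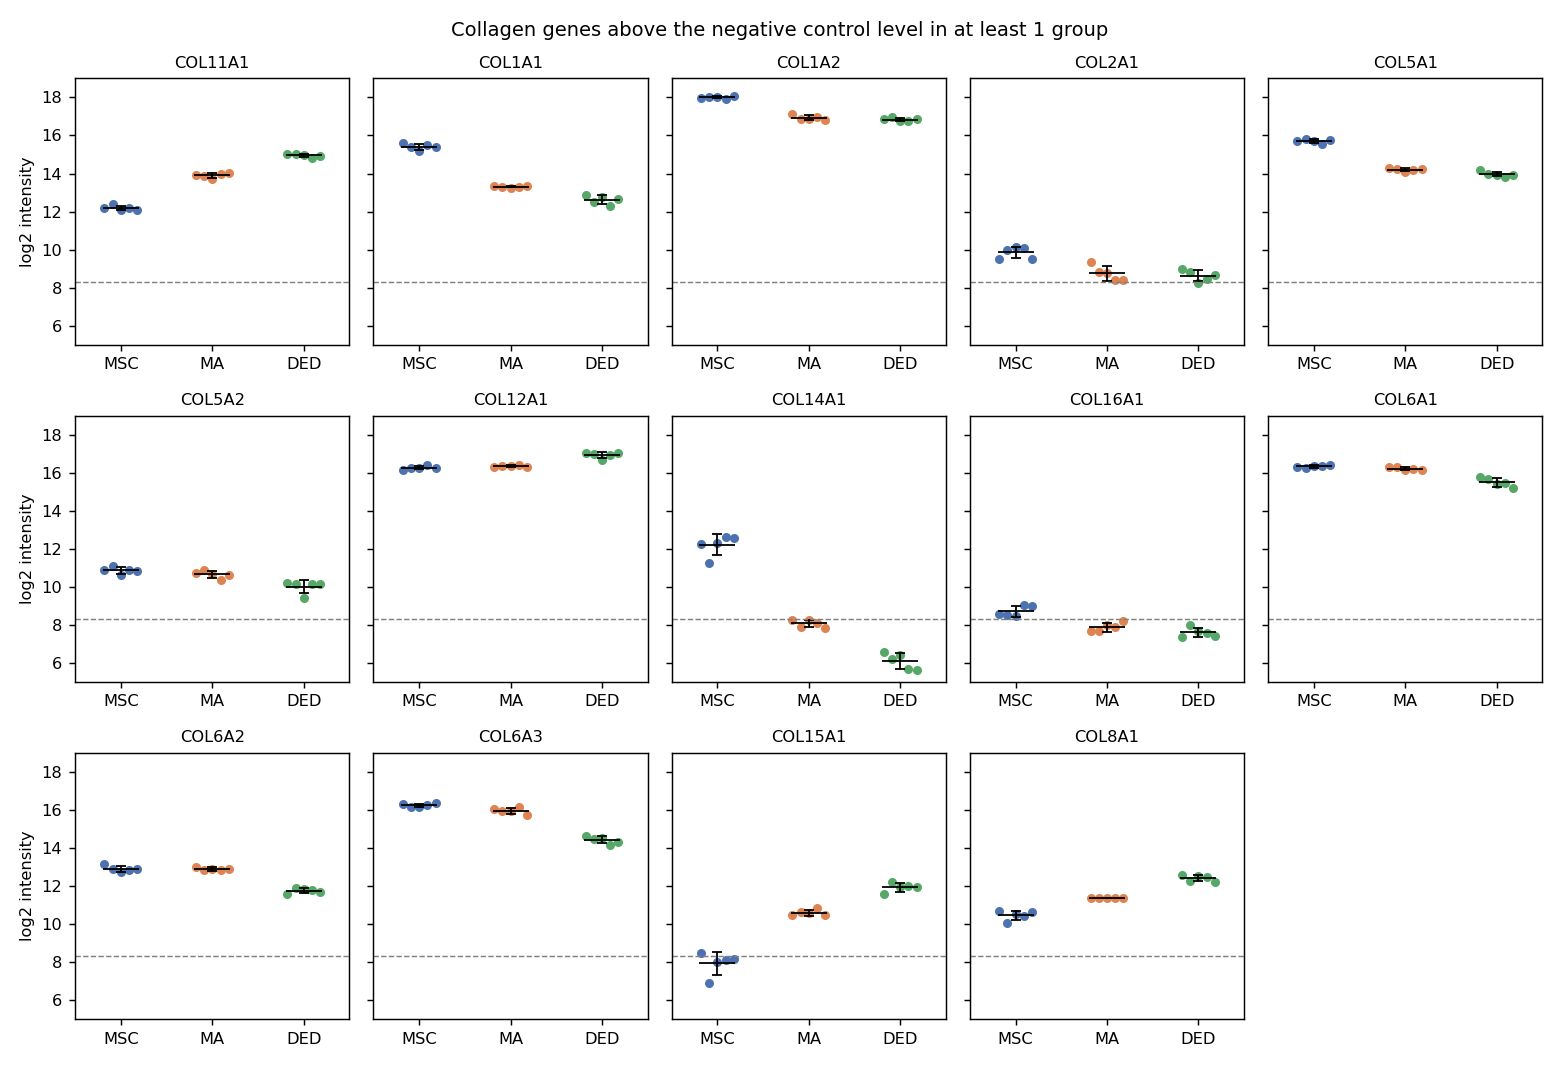
Log2 intensity of the 14 collagen genes whose mean exceeded the 95th percentile of the negative control probe sets (dashed line, 8.31) in at least 1 group. Points are the 5 arrays of each group, horizontal bars the mean and whiskers the SD. COL1A1, COL5A1 and COL14A1 are highest in MSC, COL11A1, COL15A1 and COL8A1 step upward from MSC to MA to DED, and the 3 collagen VI genes are low only in DED.

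MA against MSC covers the differentiation step. The fibrillar chains COL1A1, COL1A2, COL2A1 and COL5A1 and the FACITs COL14A1 and COL16A1 fell, whereas COL11A1, COL15A1, COL8A1, COL21A1 and the basement membrane pair COL4A1 and COL4A2 rose. In all, 7 of the 41 collagen genes rose and 11 fell (limma, Benjamini-Hochberg adjusted p under 0.05 over all genes), which is 43.9% of the members against 33.0% of all genes tested. The split was 15.4% up and 17.6% down over all genes. A difference of 2-fold or more was seen in 10 of the members that passed, 5 in each direction, where 10.2% of all genes had one. The median log2 difference was -0.09 over the collagen genes and -0.0020 over all genes. Arrays of the groups did not overlap in 15 members, against 27.0% of all genes.

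DED against MA set tumour-conditioned medium against control medium after the same differentiation. The 3 main collagen VI chains fell together with COL1A1, COL5A2, COL14A1, COL5A3 and COL18A1, while COL11A1, COL12A1, COL15A1, COL8A1, COL21A1 and COL4A4 rose. That was 6 rises and 12 falls among 41 genes, or 43.9% against 25.9% of all genes, of which 12.9% rose and 13.0% fell. The median log2 difference was -0.09 over the collagen genes and 0.02 over all genes. Of the members that passed, 8 differed by 2-fold or more (5 up, 3 down), where 6.28% of all genes did, and 17 had groups that did not overlap, against 18.1%.

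Set directly against the stem cells, DED held 8 collagen genes at a higher and 17 at a lower level, 61.0% of the members against 33.4% of all genes (17.1% higher, 16.4% lower). The lower genes took in 6 of 10 fibrillar genes, and the higher ones COL11A1, COL15A1, COL8A1, COL21A1, COL12A1, COL4A1, COL4A2 and COL4A4. The median log2 difference was -0.13 over the collagen genes and 0.03 over all genes. Of the members that passed, 15 differed by 2-fold or more (6 up, 9 down; 10.6% of all genes), and in 22 the groups did not overlap (25.1% of all genes). The 3 comparisons share arrays in pairs, so their counts are not independent of each other.

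**Figure D2:**
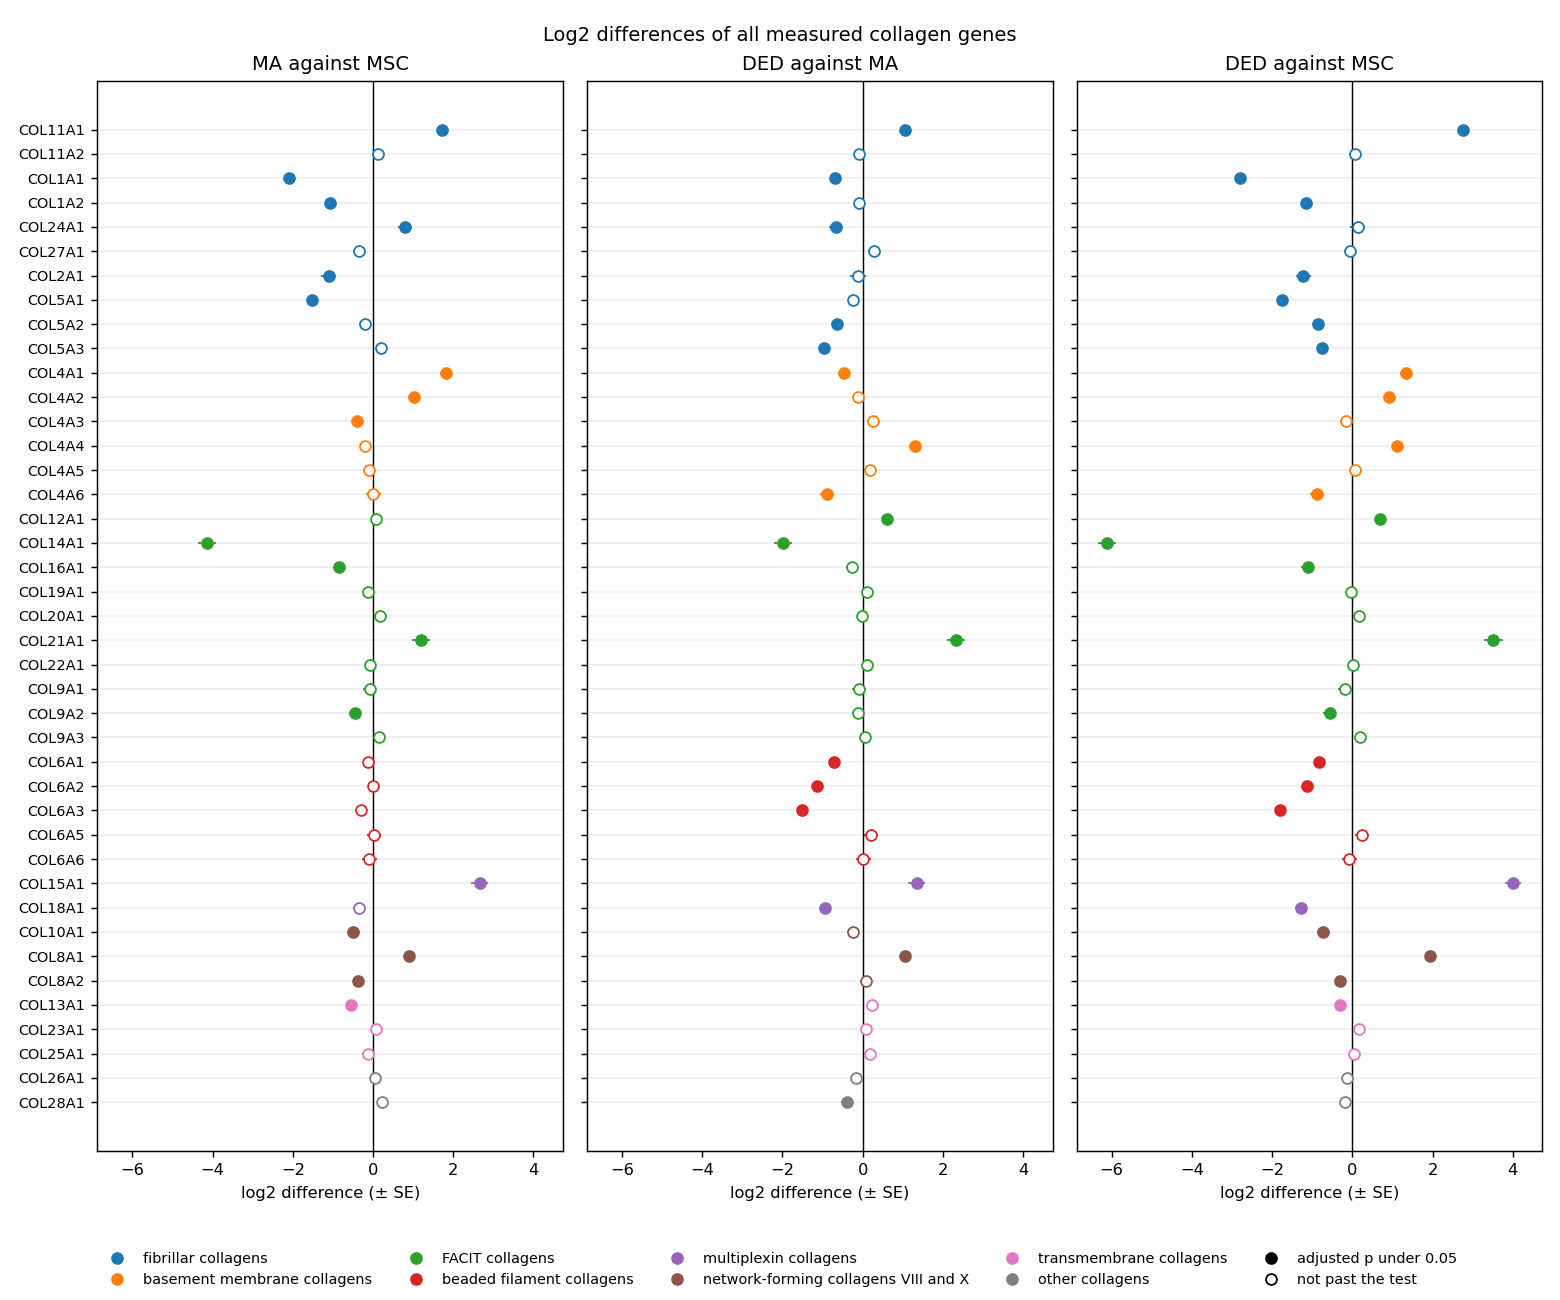
Log2 difference of each of the 41 collagen genes in the 3 comparisons, with the SE as a whisker. Filled points had an adjusted p under 0.05 and open points did not, and colours mark the structural classes. COL14A1 lies farthest to the left at -4.14 and -6.12 in the comparisons with MSC, and COL15A1 farthest to the right in them at 2.66 and 4.0.

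At the differentiation step 4 of 10 fibrillar collagen genes fell and 2 rose, where 17.6% of all genes fell and 15.4% rose. Collagen I, the main fibril of skin, bone and fat stroma, is built from COL1A1 and COL1A2. COL1A1 read 15.60, 15.37, 15.19, 15.49 and 15.41 in MSC arrays 1 to 5 and 13.35, 13.29, 13.25, 13.31 and 13.34 in MA. In DED it read 12.89, 12.52, 12.78, 12.28 and 12.64. No array of 1 group reached the range of another. COL1A1 fell 4.30-fold from MSC to MA (log2 difference -2.10, SE 0.12, adjusted p = 1.5e-11) and 1.61-fold from MA to DED (-0.69, SE 0.12, adjusted p = 0.00014). COL1A2 averaged 18.00 ± 0.06 in MSC (mean ± SD, n = 5), 16.94 ± 0.12 in MA and 16.84 ± 0.08 in DED, near the highest value of the whole table, 18.35. It fell 2.09-fold at differentiation (adjusted p = 1.9e-08), and the arrays of MA and DED overlapped (log2 difference -0.10, SE 0.10, adjusted p = 0.51).

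Collagen V is the minor fibril component that sets fibril width, with COL5A1, COL5A2 and in some tissues COL5A3 as its chains. COL5A1 read 15.73, 15.79, 15.70, 15.56 and 15.78 in MSC, 14.30, 14.22, 14.07, 14.17 and 14.24 in MA and 14.16, 13.96, 13.94, 13.84 and 13.92 in DED. All MSC arrays lay more than 1 log2 unit above the others, while DED and MA overlapped. The fall from MSC to MA was 2.85-fold (-1.51, SE 0.10, adjusted p = 1.3e-10), and DED was at -0.24 against MA (SE 0.10, adjusted p = 0.083), a call gained in 4 of 25 alternatives (0.018 to 0.049), among them that without DED array 1. COL5A2 read 10.88, 11.09, 10.63, 10.87 and 10.82 in MSC and 10.73, 10.90, 10.67, 10.35 and 10.60 in MA, which overlapped (adjusted p = 0.33). In DED it read 10.19, 10.12, 9.40, 10.16 and 10.15, with array 3 apart from the other 4, and it fell 1.56-fold against MA (adjusted p = 0.0025, and at most 0.0095 over the alternatives, which include leaving out DED array 3). COL5A3 averaged 7.23 ± 0.19 in the MSC arrays, 7.44 ± 0.13 in MA and 6.48 ± 0.25 in DED, a log2 difference of -0.95 between DED and MA (SE 0.13, adjusted p = 8.0e-06) below the negative control limit.

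COL11A1, a chain of the cartilage-type collagen XI that also joins collagen V fibrils, went the other way. It read 12.17, 12.39, 12.10, 12.21 and 12.07 in MSC, 13.93, 13.85, 13.71, 13.99 and 14.01 in MA and 15.02, 15, 14.99, 14.83 and 14.94 in DED, and the 3 groups did not overlap. The rise was 3.27-fold from MSC to MA (SE 0.10 on the log2 scale, adjusted p = 3.1e-11), 2.08-fold from MA to DED (SE 0.10, adjusted p = 8.2e-08) and 6.81-fold from MSC to DED (adjusted p = 1.3e-14). COL2A1, the main collagen of cartilage, fell 2.15-fold from 9.85 ± 0.30 in MSC to 8.74 ± 0.40 in MA (adjusted p = 8.6e-05) and was 8.63 ± 0.29 in DED (adjusted p = 0.72 against MA). Of the chondrocyte markers, ACAN (aggrecan) rose from MSC to MA by 4.04 (SE 0.41) and SOX9 fell by 0.91 (SE 0.12). ACAN spread from 7.08 to 9.94 in DED and from 8.78 to 9.31 in MA, and SOX9 lay under 8.31 in every array. Their part in the COL11A1 result was not tested.

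The start of the COL11A1 gene is shown because it rose at both steps, a choice made after its values were seen. The 250 bases before the first transcribed base lie at chr1:103108523-103108772 (GRCh38.p14, RefSeq, - strand) and are printed 5′ to 3′ on the strand of the gene. Capitals mark matches, on both strands, to any of 4 sets of letters that were searched. These were TATAAA for the TATA box, CCAAT for the CCAAT box, GGGCGG for the GC box and TGANTCA for an AP-1 site.
COL11A1: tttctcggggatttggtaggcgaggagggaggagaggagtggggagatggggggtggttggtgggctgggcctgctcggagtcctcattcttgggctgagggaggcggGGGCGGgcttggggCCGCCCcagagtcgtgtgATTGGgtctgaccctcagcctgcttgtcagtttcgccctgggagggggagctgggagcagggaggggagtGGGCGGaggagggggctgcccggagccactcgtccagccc
The window held 3 GC boxes and 1 CCAAT box, and no match to the others. Windows of this kind, 42 in all, were held for 30 of the 41 collagen genes. In at least 1 window 20 of these genes had a GC box, 10 a CCAAT box, 5 a TATA box and 1, COL10A1, an AP-1 match. Over all 35116 RefSeq windows of this length the shares were 42.6% for the GC box, 32.0% for the CCAAT box, 10.7% for the TATA box and 6.57% for the AP-1 letters. These shares are per window and the collagen counts per gene, so they cannot be set against each other directly. The part of such matches in the signal of any gene was not tested.

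COL24A1, a fibrillar collagen known from bone and cornea, averaged 6.02 ± 0.11 in the MSC arrays, 6.82 ± 0.16 in MA and 6.15 ± 0.53 in DED, all under the negative control limit. It rose by 0.80 at differentiation (adjusted p = 0.0017) and fell by 0.67 in DED (adjusted p = 0.0094), where array 1 at 6.92 lay within the MA range of 6.71 to 7.10. COL11A2 stayed between 5.90 and 6.76 in the 15 arrays and COL27A1 between 7.01 and 7.86, and neither passed the test in any comparison. COL27A1 was the only fibrillar gene besides COL5A1 whose call depended on an alternative: it passed in DED against MA without DED array 1 (0.40, adjusted p = 0.049) and in MA against MSC with array weights (adjusted p = 0.046) and without MSC array 3 (0.031) or DED array 1 (0.0498).

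The FACIT gene COL14A1, which binds fibrils in mature connective tissue, read 12.27, 11.27, 12.32, 12.64 and 12.55 in MSC, 8.26, 7.90, 8.25, 8.08 and 7.84 in MA and 6.56, 6.20, 6.40, 5.66 and 5.62 in DED. Every MSC array lay at least 3 log2 units above every MA array, and array 2 was the lowest of the MSC arrays. The log2 difference was -4.14 from MSC to MA (SE 0.22, adjusted p = 1.0e-11) and -1.98 from MA to DED (SE 0.22, adjusted p = 1.0e-06). The MA and DED means were both under 8.31, so the size of either difference depends on background. COL16A1, a minor FACIT of skin and cartilage, fell by 0.84 from 8.72 ± 0.29 in MSC to 7.87 ± 0.23 in MA (adjusted p = 0.00019) and was 7.60 ± 0.25 in DED. The MA and DED means of COL16A1 were also under 8.31, so the size of its fall depends on background.

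COL12A1, the FACIT of tendon and of tissue under load, read 16.16, 16.22, 16.24, 16.39 and 16.26 in MSC and 16.31, 16.33, 16.36, 16.41 and 16.28 in MA, which overlapped (adjusted p = 0.59). In DED it read 17.04, 16.97, 16.65, 16.95 and 17.05, above every MA array and lowest in array 3. The rise against MA was 1.51-fold (0.59, SE 0.10, adjusted p = 0.00012). COL21A1 moved the most upward among the FACITs, from 4.56 ± 0.19 in MSC to 5.75 ± 0.61 in MA and 8.08 ± 0.39 in DED, with log2 differences of 1.19 (adjusted p = 0.00037) and 2.33 (adjusted p = 1.8e-07). Its MSC mean lay under the median of the negative controls, 4.80, and only DED arrays 3 and 5, at 8.32 and 8.44, were above 8.31. COL9A2, a chain of cartilage collagen IX, fell by 0.45 from MSC to MA (adjusted p = 0.025), a call that was lost without MSC array 2 (0.054), MSC array 3 (0.082) or MA array 1 (0.060). COL9A1, COL9A3, COL19A1, COL20A1 and COL22A1 passed in no comparison and had group means between 3.03 and 5.68.

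Of the 5 collagen VI genes measured, 0 were called at differentiation, where 33.0% of all genes were. In conditioned medium 3 of the 5 fell, where 13.0% of all genes fell. Collagen VI filaments are assembled from COL6A1, COL6A2 and COL6A3. The cleaved end of COL6A3 is known as endotrophin, a product of fat cells. COL6A3 read 16.28, 16.13, 16.16, 16.25 and 16.33 in MSC, 16.02, 15.91, 15.91, 16.13 and 15.74 in MA and 14.64, 14.46, 14.52, 14.16 and 14.32 in DED. Every DED array lay more than 1 log2 unit under every other array, while MSC and MA touched. The fall from MA to DED was 2.87-fold (-1.52, SE 0.11, adjusted p = 1.9e-09). From MSC to MA the log2 difference was -0.29 (SE 0.11, adjusted p = 0.051), a value at the threshold that passed in 11 of 25 alternatives (0.0096 to 0.049), among them those without MA array 4 or DED arrays 1, 3 or 4.

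COL6A2 read 13.16, 12.86, 12.74, 12.83 and 12.86 in MSC, 13.01, 12.81, 12.91, 12.81 and 12.87 in MA and 11.59, 11.86, 11.84, 11.77 and 11.69 in DED. COL6A1 read 16.27, 16.26, 16.37, 16.34 and 16.39 in MSC, 16.27, 16.29, 16.15, 16.18 and 16.12 in MA and 15.75, 15.64, 15.38, 15.43 and 15.21 in DED. Both genes overlapped between MSC and MA and were lower in all 5 DED arrays. COL6A2 fell 2.19-fold from MA to DED (-1.13, SE 0.10, adjusted p = 5.1e-08) and COL6A1 1.65-fold (-0.72, SE 0.11, adjusted p = 3.1e-05). From MSC to MA they differed by -0.01 (SE 0.10, adjusted p = 0.97) and -0.12 (SE 0.11, adjusted p = 0.43). COL6A5 and COL6A6, later members that can stand in for COL6A3, were between 3.61 and 4.98 in all arrays and passed in no comparison. The adipocyte markers also fell from MA to DED, with DED array 1 the highest at 11.53. In that array COL6A3, at 14.64, and COL6A1, at 15.75, were the highest of the DED arrays, whereas COL6A2, at 11.59, was the lowest. Each lay below every MA array of its gene, the lowest MA array of COL6A3 being at 15.74. The part of the adipocyte markers in the fall of collagen VI was not tested.

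The windows of COL6A2 and COL6A3 are shown because both chains enter the same filament and fell by different amounts, a choice made after their values were seen. They lie at chr21:46097862-46098111 (+ strand) and chr2:237414165-237414414 (- strand), with the build, orientation and capitals as for COL11A1.
COL6A2: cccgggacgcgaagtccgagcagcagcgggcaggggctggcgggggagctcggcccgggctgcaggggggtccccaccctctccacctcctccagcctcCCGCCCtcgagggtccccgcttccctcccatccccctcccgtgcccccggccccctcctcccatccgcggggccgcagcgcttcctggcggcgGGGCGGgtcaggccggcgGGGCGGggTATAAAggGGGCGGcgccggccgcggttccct
COL6A3: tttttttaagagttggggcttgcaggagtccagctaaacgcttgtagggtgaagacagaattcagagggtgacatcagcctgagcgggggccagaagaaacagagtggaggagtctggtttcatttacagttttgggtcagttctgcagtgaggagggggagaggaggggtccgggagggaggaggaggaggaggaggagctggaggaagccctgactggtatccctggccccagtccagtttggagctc
The COL6A2 window held 4 GC boxes and 1 TATA box, which begins 32 bases before the start, and its GC content was 79.6%. None of the 4 sets of letters is in the COL6A3 window, with a GC content of 56.0%. The part of these matches in the unequal falls was not tested, and no window of COL6A1 is shown.

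Basement membrane genes were all under the negative control limit in every group mean. COL4A1 and COL4A2, which make up the common collagen IV of most basement membranes, rose at differentiation. COL4A1 read 5.34, 4.90, 5.38, 4.61 and 4.85 in MSC, 6.79, 6.65, 7.03, 6.82 and 6.83 in MA and 6.50, 6.33, 6.46, 6.33 and 6.14 in DED. COL4A2 read 6.77, 7.37, 7.09, 7.34 and 6.98 in MSC, 8.08, 8.02, 8.16, 8.63 and 7.78 in MA and 8.24, 7.88, 8.25, 7.89 and 7.84 in DED. For both genes every MSC array lay under all arrays of the other groups. COL4A1 rose by 1.81 (SE 0.14, adjusted p = 2.0e-09) and COL4A2 by 1.02 (SE 0.15, adjusted p = 2.2e-05). In conditioned medium COL4A1 fell by 0.47 (SE 0.14, adjusted p = 0.015), and COL4A2 was at -0.11 (SE 0.15, adjusted p = 0.66).

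COL4A1 and COL4A2 are neighbours on chromosome 13 and are read away from each other. The whole stretch between their first transcribed bases, 126 bases at chr13:110307158-110307283 (GRCh38.p14, RefSeq, + strand, so that COL4A2 starts to its right and COL4A1 to its left), is shown because both genes rose at the same step. Capitals mark 1 match to CCAAT and 1 to GGGCGG among the 4 sets of letters searched on both strands.
COL4A1-COL4A2: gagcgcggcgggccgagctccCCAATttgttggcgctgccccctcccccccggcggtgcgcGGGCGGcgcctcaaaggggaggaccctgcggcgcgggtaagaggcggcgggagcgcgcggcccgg
Of 35116 RefSeq promoter windows cut to their last 126 bases before the start, 21.1% held CCAAT and 34.6% GGGCGG, and GC content of the stretch was 80.2%. The within-array log2 ratio of COL4A1 to COL4A2 shifted by 0.78 from MSC to MA, by -0.36 from MA to DED and by 0.43 from MSC to DED (exact two-sided permutation test, adjusted p = 0.0440, 0.0667 and 0.143 over 18 chain tests). Both genes had means under 8.31 in every group, so the size of these ratio shifts depends on background and is given as a description.

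The other collagen IV genes also lie as neighbours, COL4A3 with COL4A4 on chromosome 2 and COL4A5 with COL4A6 on chromosome X, and serve in kidney, lung and smooth muscle membranes. COL4A4 read 5.46, 5.79, 5.83, 5.35 and 5.74 in MSC, 5.27, 5.42, 5.36, 5.65 and 5.52 in MA and 6.84, 6.82, 6.34, 7.18 and 6.59 in DED. The DED arrays lay above all others, and the log2 difference to MA was 1.31 (SE 0.14, adjusted p = 6.6e-07). Its neighbour COL4A3 had means of 4.23 ± 0.13 in DED and 3.98 ± 0.18 in MA (adjusted p = 0.24), under the negative control median in all groups. COL4A3 fell by 0.41 from MSC to MA (adjusted p = 0.032), a call lost with the replicate number as a block (0.063), with only MSC and MA in the fit (0.052) and without MSC arrays 1 or 5 or MA arrays 1 or 5 (0.063 to 0.11). COL4A6 fell by 0.88 in DED against MA (SE 0.18, adjusted p = 0.00072) to 4.74 ± 0.25, and COL4A5 passed in no comparison, with group means from 5.46 to 5.64.

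**Figure D3:**
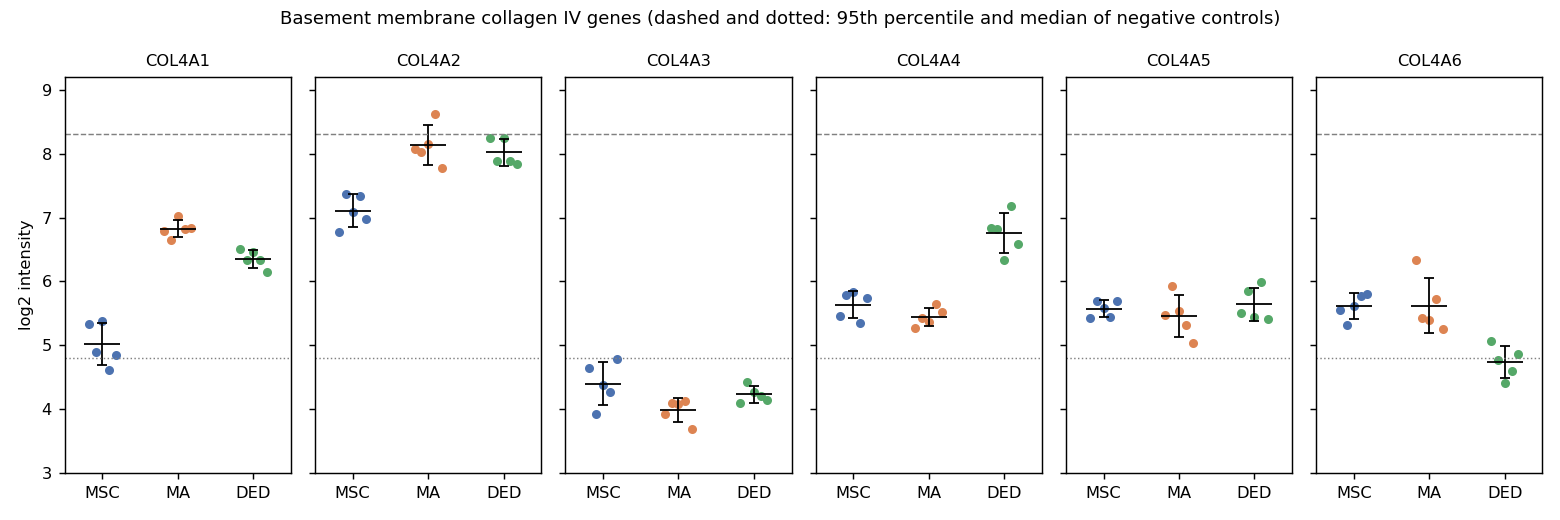
Log2 intensity of the 6 collagen IV genes in the 5 arrays of each group, with mean and SD. The dashed line is the 95th percentile (8.31) and the dotted line the median (4.80) of the negative controls. COL4A1 and COL4A2 sit higher in MA and DED than in MSC, COL4A4 is high only in DED and COL4A6 is low only in DED.

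The multiplexins of the basement membrane zone went in opposite directions in conditioned medium. COL15A1, a collagen of fat, muscle and vessel borders, read 8.47, 6.91, 8.01, 8.09 and 8.13 in MSC, 10.45, 10.64, 10.56, 10.81 and 10.44 in MA and 11.55, 12.20, 11.95, 12.01 and 11.92 in DED, and no groups overlapped. It rose by 2.66 from MSC to MA (SE 0.21, adjusted p = 2.4e-09), with the MSC mean under 8.31, and 2.54-fold from MA to DED (1.35, SE 0.21, adjusted p = 4.5e-05). COL18A1, whose end fragment is endostatin, was 7.95 ± 0.27 in MSC and 7.61 ± 0.28 in MA (adjusted p = 0.071; 0.030 without MA array 1) and fell by 0.94 to 6.66 ± 0.09 in DED (SE 0.14, adjusted p = 4.0e-05). RefSeq places antisense genes over COL15A1, COL18A1, COL5A1 and COL4A2, and the sources used here do not say whether the probes tell the strands apart.

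The COL15A1 window, shown because the gene rose at both steps, lies at chr9:98943657-98943906 (+ strand), with build, orientation and capitals as for COL11A1.
COL15A1: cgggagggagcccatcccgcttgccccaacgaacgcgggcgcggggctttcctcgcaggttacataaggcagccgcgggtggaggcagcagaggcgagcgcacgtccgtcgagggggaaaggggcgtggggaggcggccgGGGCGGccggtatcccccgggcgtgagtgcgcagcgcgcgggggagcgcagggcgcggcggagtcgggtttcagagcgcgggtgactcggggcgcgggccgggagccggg
It held 1 GC box and no match to the other letters, and its GC content was 76.8%.

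Among the network-forming collagens COL8A1, a chain of the short-chain network of vessel walls and the eye, read 10.67, 10.07, 10.50, 10.43 and 10.62 in MSC and 11.35, 11.35, 11.34, 11.34 and 11.36 in MA. In DED it read 12.58, 12.23, 12.51, 12.45 and 12.22, and again no groups overlapped. It rose 1.85-fold from MSC to MA (0.89, SE 0.12, adjusted p = 4.2e-06) and 2.07-fold from MA to DED (1.05, SE 0.12, adjusted p = 8.6e-07). Its partner chain COL8A2 was under the negative control median in all groups and fell by 0.37 from MSC to MA (adjusted p = 0.013). COL10A1, the collagen of hypertrophic cartilage, fell by 0.49 in the same comparison (adjusted p = 0.022), a call lost without MSC arrays 3 or 4 or MA arrays 3, 4 or 5 (0.052 to 0.063), and was 5.28 ± 0.16 in DED.

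Transmembrane and remaining collagens had no group mean above 8.31. COL13A1, found at cell contacts and the neuromuscular junction, fell by 0.54 from MSC to MA (adjusted p = 0.00064) at levels between 3.86 and 4.75. COL28A1 fell by 0.40 from MA to DED (adjusted p = 0.032), and 8 of 25 alternatives lost that call (0.0501 to 0.11), among them those without DED arrays 1, 3, 4 or 5 or MA arrays 3 or 5. The calls of COL13A1 and COL8A2 in DED against MSC (adjusted p = 0.042 and 0.044) were lost in 12 and 13 of 25 alternatives. COL23A1, COL25A1 and COL26A1 passed in no comparison, and their arrays spanned 7.75 to 8.35, 5.07 to 6.05 and 6.29 to 6.93.

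Signals of several chains that assemble into 1 molecule shifted by unequal amounts. Within-array log2 ratios of 6 pairs of chains were compared between groups, which gives 18 exact permutation tests over 5 against 5 arrays with a smallest possible p of 0.00794. After adjustment 13 of the 18 had a p under 0.05. Other pairs of genes were not tested, so this count cannot be read as a trait of chains that assemble together. The comparisons share arrays and the collagen VI ratios share chains, so the 18 tests are not independent of each other. The ratio of COL1A1 to COL1A2 shifted by -1.04 from MSC to MA and by -0.59 from MA to DED (exact p = 0.00794 and adjusted p = 0.0159 for both). The ratio of COL5A1 to COL5A2 shifted by -1.30 at differentiation (adjusted p = 0.0159) and by 0.41 in conditioned medium (exact p = 0.0317, adjusted p = 0.0440). The shift of 0.41 leaned on DED array 3, whose log2 ratio was 4.54. The next highest DED array stood at 3.97, and the highest MA array at 3.82. Without DED array 3 the shift was 0.265, and this smaller shift was not tested. For collagen VI in conditioned medium the ratio of COL6A1 to COL6A3 shifted by 0.80 and that of COL6A1 to COL6A2 by 0.41 (adjusted p = 0.0159 for both, exact permutation test), and that of COL6A2 to COL6A3 by 0.39 (exact permutation adjusted p = 0.0440). In DED array 1 the log2 ratio of COL6A1 to COL6A2 was 4.16, with the other DED arrays at 3.52 to 3.78. Without that array the COL6A1 to COL6A2 shift was 0.305, and this smaller shift was not tested. The COL6A2 to COL6A3 ratio of DED array 1, -3.05, lay within the MA range of -3.32 to -2.87. COL6A3 fell by more than COL6A2, and COL6A2 by more than COL6A1. At differentiation the COL6A1 to COL6A2 ratio was at -0.12 (exact p = 0.262) and that of COL6A1 to COL6A3 at 0.16 (exact permutation adjusted p = 0.0804). The COL6A2 to COL6A3 ratio shifted by 0.28 at that step (exact permutation adjusted p = 0.044). These are shifts of probe signals, and that of COL1A2 lies near the top of the scale.

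**Figure D4:**
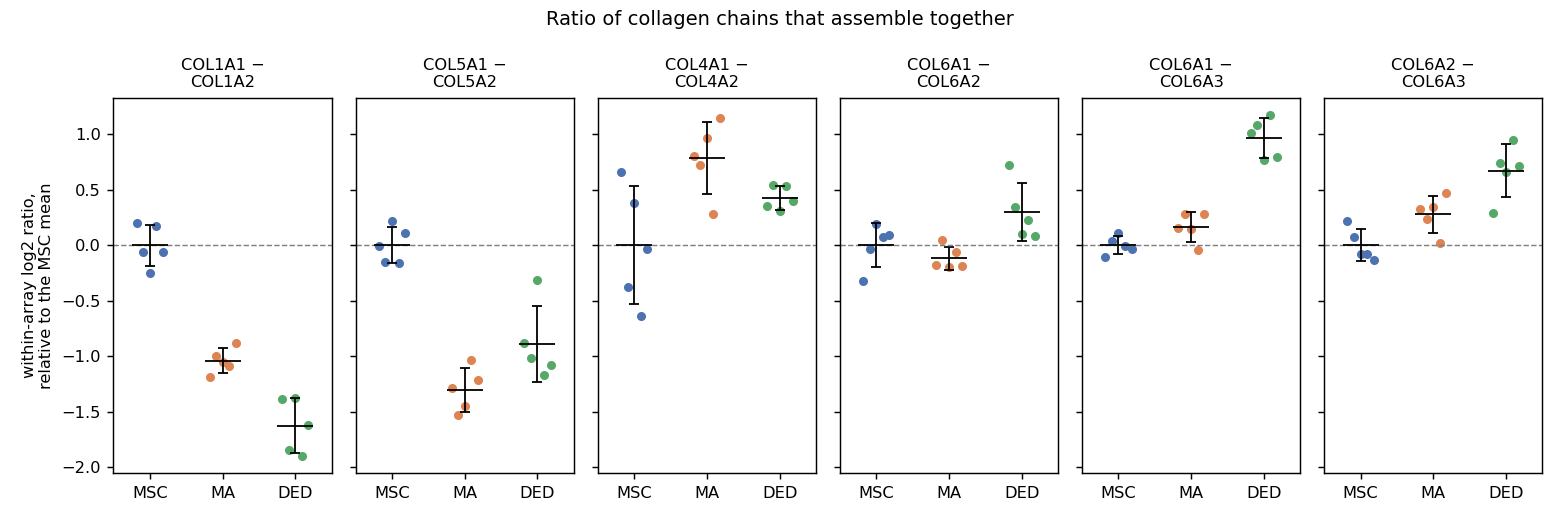
Within-array log2 ratio of 6 pairs of chains, with the MSC mean of each pair set to 0 (dashed line), for 5 arrays per group with mean and SD. The COL1A1 to COL1A2 ratio steps down at both stages to -1.63 in DED, and the COL6A1 to COL6A3 ratio is highest in DED at 0.97.

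Of 19 measured genes that modify and fold collagen chains, 14 fell and 2 rose from MSC to MA (84.2% called against 33.0% of all genes), with a median log2 difference of -0.62. The prolyl 3-hydroxylases P3H2 and P3H3 fell most, with log2 differences of -3.01 (SE 0.18, adjusted p = 6.4e-11) and -2.11 (SE 0.12, adjusted p = 2.7e-11). CRTAP, a partner of the prolyl 3-hydroxylase P3H1, rose by 1.04 (SE 0.11), and TMEM38B, an ion channel of the endoplasmic reticulum needed for collagen maturation, by 1.56 (SE 0.16). From MA to DED 3 rose and 8 fell (57.9% against 25.9% of all genes, median -0.18). The lysyl hydroxylase PLOD2 rose by 1.09 (SE 0.13, adjusted p = 1.2e-06) and the collagen chaperone SERPINH1 by 0.98 (SE 0.13, adjusted p = 1.1e-05). TMEM38B fell by 1.88 (SE 0.16) and P4HA1, a prolyl 4-hydroxylase subunit, by 1.31 (SE 0.11, adjusted p = 1.9e-08). Means of P3H2 in MA (6.24) and of TMEM38B in MSC (7.97) and DED (7.65) were under 8.31. The size of the P3H2 and TMEM38B differences therefore depends on background. Against MSC, 16 of the 19 were lower in DED and 2 higher (94.7% against 33.4% of all genes).

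Of 12 procollagen cleavage and crosslinking genes 2 rose and 6 fell from MSC to MA (66.7% called against 33.0% of all genes, median -0.39). The lysyl oxidases LOX and LOXL3 were among the falls, at -1.78 (SE 0.18, adjusted p = 9.4e-08) and -3.10 (SE 0.22, adjusted p = 4.4e-10). LOXL3 averaged 6.76 in MA, under 8.31, so the size of its fall depends on background. ADAMTS2, which trims the amino end of procollagen, rose by 1.49 (SE 0.12, adjusted p = 2.5e-09). In conditioned medium 1 rose and 3 fell (median -0.08), a share of 33.3% near the 25.9% of all genes. Among the falls were PCOLCE and PCOLCE2, enhancers of cleavage at the carboxyl end, at -1.71 (SE 0.15, adjusted p = 3.3e-08) and -1.93 (SE 0.15, adjusted p = 5.7e-09). DED against MSC had 1 higher and 8 lower (75.0% against 33.4% of all genes).

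Collagen receptors and uptake genes, 9 in all, held 3 rises and 4 falls from MSC to MA (77.8% called against 33.0% of all genes). From MA to DED they held 2 rises and 1 fall, a share of 33.3% near the 25.9% of all genes. ITGA11, a receptor for fibrillar collagen on stromal cells, fell by 3.15 (SE 0.21, adjusted p = 2.2e-10) and then rose by 3.10 (SE 0.21, adjusted p = 7.5e-10). It averaged 10.08 in the MSC arrays, 6.93 in MA and 10.03 in DED, with the MA mean under 8.31. DDR2, a receptor kinase for fibrillar collagen, rose by 1.03 from MA to DED (SE 0.10, adjusted p = 1.0e-07), and ITGA2 fell by 0.96 (SE 0.18). All group means of ITGA2 were under 8.31. Of 8 collagen-degrading proteases 1 rose and 3 fell at differentiation, with the collagenase MMP1 at -2.70 (SE 0.19), which is 50% called against 33.0% of all genes. In conditioned medium 3 rose and 3 fell (75.0% against 25.9%). There MMP1 rose by 1.11 (SE 0.19), MMP14, a collagenase of the cell surface, by 0.73 (SE 0.13), and CTSK, the lysosomal collagenase cathepsin K, fell by 1.70 (SE 0.41, adjusted p = 0.0036). MMP1 averaged 6.20 in MA and 7.31 in DED, both under 8.31. The size of the ITGA11, ITGA2 and MMP1 differences therefore depends on background. CTSK ranged from 8.46 to 11.88 in DED and from 12.16 to 12.63 in MA. Without DED array 3 its difference was -1.15 from MA to DED, and that from MSC to MA, -0.79 with an adjusted p of 0.16, passed the test (0.0040). Against MSC, the receptor list held 2 genes higher and 3 lower in DED (55.6%), and the protease list 1 higher and 3 lower (50%), where 33.4% of all genes were called.

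**Figure D5:**
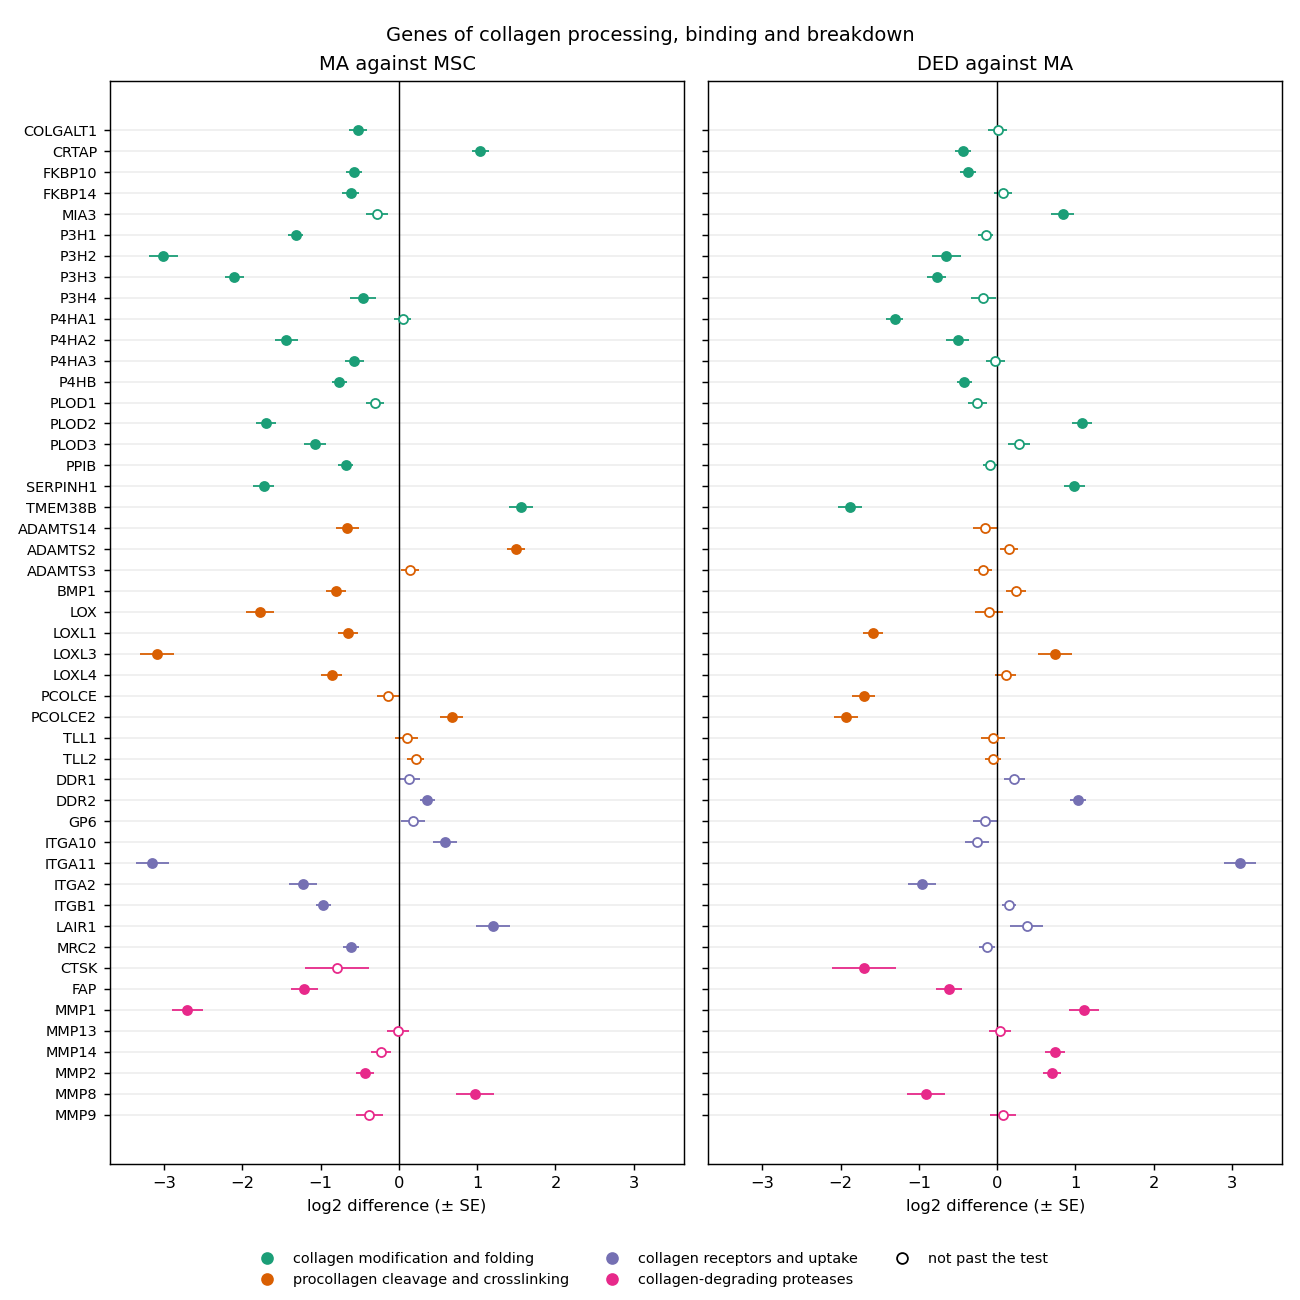
Log2 difference with SE of 48 genes of collagen modification, cleavage and crosslinking, binding and breakdown from MSC to MA and from MA to DED. Filled points had an adjusted p under 0.05. Most modification genes lie left of 0 at differentiation, and ITGA11 lies at -3.15 and then at 3.10.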

How the data were processed

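RNA of ASC52 cells was measured on 15 single-colour arrays, 5 per group. The authors deposited log2 intensity values per probe set, for which the submitters' processing notes name RMA and Transcriptome Analysis Console. The sources used here give no software version and no genome build. Of 24351 probe sets, 17709 carried 1 gene symbol, and the probe set with the highest mean was kept for 20 genes with several, which left 17687 genes. No collagen gene had several. All 15 arrays entered 1 fit with a mean for each group (limma 3.58.1, lmFit then eBayes, R 4.3.3), and two-sided p-values had Benjamini-Hochberg adjustment over 17687 genes. A fold is printed only where both group means exceeded 8.31, the 95th percentile of 612 negative control probe sets. Chain ratios were compared with exact two-sided permutation tests in Python 3.11.15. Simulated data had 200 changed genes of 17687 and 1 spread per gene for all groups. At least 90% of 2-fold and 58% of 1.5-fold changes were recovered there in each comparison, and 7 to 12 unchanged genes passed. Far more genes passed in the measured data, 4587 to 5914 per comparison. The adjusted p threshold then falls elsewhere, so these shares need not hold for the measured data.

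The members and lists were chosen with earlier results of these data known. Members are all genes that match the symbol rule, and which members under 8.31 are printed by array was decided after their values were seen. Pathway genes named in the text were those that passed the test with the largest differences, up to 2 in each direction per list and comparison, and not all of them are printed. Array number limits the precision. Alternatives tried were other scaling, filters, fits, a replicate block and leaving out arrays.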

Additional observations from a re-analysis of the deposited data

Results flagged for a closer look

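In 12 of 123 sets of 5 arrays (41 genes in 3 groups), 1 array lay apart from the other 4 by more than Dixon's 95% limit for the gap over the group's range, where chance gives about 1 in 20 sets. Of genes with signal above the negative control limit, COL14A1 in MSC array 2 read 11.27 against 12.27 to 12.64 in the others. COL6A2 in MSC array 1 read 13.16 against 12.74 to 12.86. DED array 3 stood low in COL12A1, at 16.65 against 16.95 to 17.05, and in COL5A2, at 9.40 against 10.12 to 10.19.

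The other 8 lay at background levels. COL18A1 read 8.44 in MSC array 1, with the others at 7.78 to 7.89. COL24A1 in MA array 3 was 7.10, with the others at 6.71 to 6.80, and COL10A1 in MA array 1 was 6.20, with the others at 5.27 to 5.49. COL11A2 in MA array 5 was 6.76 against 6.17 to 6.26. COL19A1 in MSC array 3 was 3.43 against 3.05 to 3.14. COL6A5 in MSC array 2 was 4.0 against 4.42 to 4.55, COL6A6 in DED array 5 was 4.32 against 3.94 to 4.01, and COL9A3 in DED array 4 was 4.61 against 4.44 to 4.48.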

How the results depend on the processing

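Over 25 alternatives, 15 of which left out 1 array, collagen genes past the test numbered 16 to 20 in MA against MSC, 17 to 19 in DED against MA and 23 to 25 in DED against MSC. Of 123 pairs of a gene and a comparison, 112 stayed on 1 side of the threshold throughout, 0 changed direction, 6 of 61 calls were lost somewhere and 5 were gained. The lost calls were COL28A1 (DED against MA), COL13A1 and COL8A2 (DED against MSC) and COL10A1, COL4A3 and COL9A2 (MA against MSC), all under the negative control limit of 8.31. No called collagen difference moved by over 1.5 times. Of 95 called differences of pathway genes 2 were lost, P3H4 in MA against MSC and P3H2 in DED against MA, and 9 were gained. The protease FAP in DED against MA moved from -0.62 to -0.41 without DED array 3 and to -0.32 without DED arrays 1 and 3.

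No pairing of the samples by replicate number was seen, though such a check cannot show that there was none. Deviations of same-numbered arrays correlated between -0.11 and 0.09 over all genes, and 2 of 15 arrays correlated best with their own number. With the replicate block 5663, 4440 and 5738 of all genes passed in MA against MSC, DED against MA and DED against MSC, against 5844, 4587 and 5914 without it.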
